A study of Sus scrofa with 6 samples.

Results

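The complement components and regulators examined here are 9 genes: C1QA, C1QB, C1QC, C1R, C1S, C3, C7, CFD and SERPING1. They were taken from the gene table by symbol, and 7 of the 9 had a row among the 13288 genes listed there. C1R and C1S, which encode the proteases of the first complement complex, had no row under those names in the table used here, and they were not analysed here. No listed gene lay over their RefSeq positions on Sscrofa11.1, chr5:63644097-63655149 for C1R and chr5:63670309-63681466 for C1S. The RNA came from ventricular tissue of male Tibetan minipigs, 3 after sham surgery and 3 after descending aortic constriction (DAC), a narrowing of the aorta that loads the left ventricle with pressure. Hearts were collected 12 weeks after surgery, and all minipigs had been operated on under the same anesthesia. The labels call the 3 samples of a group independent, and they are named here sham replicate 1, 2 or 3 and DAC replicate 4, 5 or 6. The labels name the tissue as heart, and 10 of 14 cardiomyocyte markers were listed, with a summed level of 14850 to 15590 FPKM in the sham group and 14110 to 17050 FPKM in the DAC group.

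Complement is a cascade of plasma and tissue proteins that marks particles and dying cells for removal. C1q, assembled from the products of C1QA, C1QB and C1QC, binds the target and carries the proteases C1r and C1s, which start the classical pathway, while C1 inhibitor, the product of SERPING1, inactivates them. Factor D, the product of CFD, starts the alternative pathway by cutting factor B. Both routes cleave C3, and C7 belongs to the terminal complex that inserts into membranes. Much of the circulating protein is made in the liver, but macrophages make C1q, fat cells make factor D, and stromal cells of many organs transcribe C3, C7 and SERPING1.

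Levels are FPKM, fragments per kilobase of transcript scaled to the mapped fragments of the library, as deposited by the authors. Read numbers are unknown, so the error given is the spread between minipigs. Differences are DAC minus sham on the log2(FPKM + 1) scale, which understates the change of low genes, and they were tested with limma across the 11029 genes that reached 1 FPKM in 3 or more samples. A gene was called when its unadjusted P was under 0.05. By that rule 8.51% of all genes tested were called, 3.25% higher and 5.27% lower in DAC, and none (0%) reached an adjusted P under 0.05. All 7 listed complement genes passed the filter in every one of the 6 samples. None of the 7 was called, and in none of them did the sham and DAC values fall into ranges that did not overlap, against 14.9% of all genes tested. The mean log2 level was higher in DAC for 4 of the 7 and lower for 3, with a median difference of 0.023, beside -0.016 over all genes tested. The adjusted P from limma lay between 0.617 for SERPING1 and 0.972 for C1QA.

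**Figure D1:**
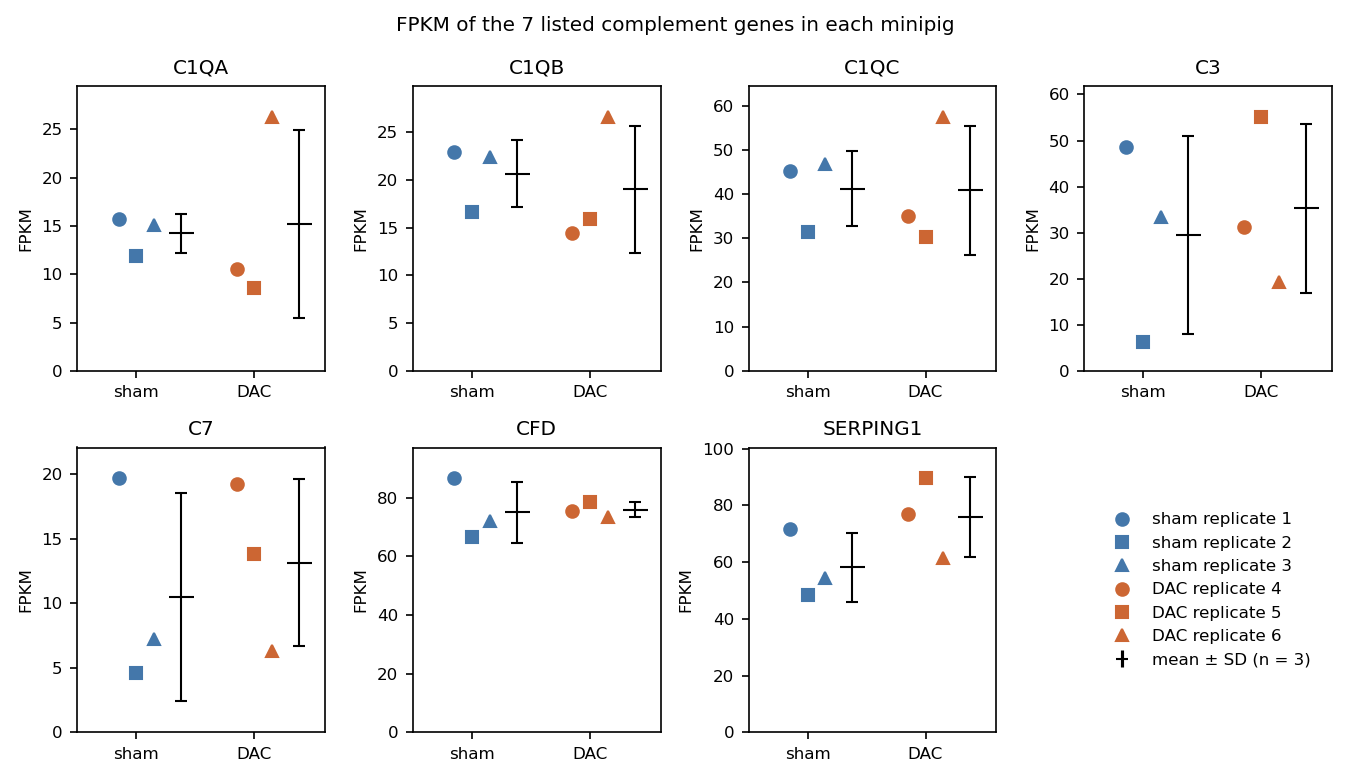
FPKM (vertical axes, from 0) of the 7 listed complement genes in each of 3 sham and 3 DAC minipigs, with 1 symbol per minipig and the mean ± SD (n = 3) of each group in black. The groups overlap in every panel. DAC replicate 6 is the highest sample for the 3 C1q chains, and sham replicate 2 is the lowest for C3, C7, CFD and SERPING1.

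The genes of the C1q chains lie side by side on the plus strand of chromosome 6 in the order C1QA (chr6:80586280-80589939), C1QC (chr6:80592478-80597459) and C1QB (chr6:80601665-80607471), with gaps of 2538 and 4205 bases. C1QA was at 15.7, 11.9 and 15.1 FPKM in the sham minipigs, in the order of their numbers, and at 10.6, 8.63 and 26.3 FPKM in the DAC minipigs. The DAC values thus lay on both sides of the sham values, with replicates 4 and 5 below all of them and replicate 6 above. The group levels were 14.2 ± 2.06 FPKM (SD, n = 3) in sham and 15.2 ± 9.70 FPKM (SD, n = 3) in DAC. The difference of C1QA was -0.062 (95% interval -0.93 to 0.81, adjusted P = 0.972 from limma). Its mean was higher in DAC on the FPKM scale and lower on the log2 scale.

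C1QB, which encodes the B chain, was at 23.0, 16.6 and 22.3 FPKM in the sham minipigs and at 14.4, 15.9 and 26.6 FPKM in the DAC minipigs. Again DAC replicates 4 and 5 were below the 3 sham samples and replicate 6 above them. The means were 20.6 ± 3.50 FPKM (SD, n = 3) and 19.0 ± 6.65 FPKM (SD, n = 3), a difference of -0.15 (95% interval -0.71 to 0.41, adjusted P = 0.878 from limma). C1QC, for the C chain, was at 45.2, 31.5 and 46.9 FPKM in sham and at 34.9, 30.3 and 57.5 FPKM in DAC. Here DAC replicate 4 fell within the sham range, and replicates 5 and 6 fell below and above it. The means of C1QC were 41.2 ± 8.43 FPKM (SD, n = 3) and 40.9 ± 14.6 FPKM (SD, n = 3), a difference of -0.043 (95% interval -0.66 to 0.57, adjusted P = 0.972 from limma).

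The 3 chains had the same order in each minipig, with C1QC above C1QB and C1QB above C1QA in all 6 samples. C1QB stood at 0.413 to 0.527 of the C1QC level. C1QA stood at 0.285 to 0.458 of the C1QC level and at 0.542 to 0.989 of the C1QB level, and the highest of both ratios was in DAC replicate 6. For none of the 3 chain ratios did the groups differ in an exact two-sided permutation test (P = 0.7 for C1QA to C1QB, 0.9 for C1QA to C1QC and 0.4 for C1QB to C1QC). A comparison of 3 minipigs with 3 cannot give less than 0.1 in this test. The C1q protein holds its chains in equal number, and FPKM give no ratio of proteins.

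The sum of the 3 chains was 83.8, 60.0 and 84.3 FPKM in the sham minipigs and 59.9, 54.8 and 110 FPKM in the DAC minipigs. As a share of the FPKM of the 7 listed genes, C1q took 27.0%, 32.3% and 33.5% in sham and 22.8%, 18.8% and 40.8% in DAC. The DAC samples again lay on both sides of the sham samples. The mean share was 30.9% ± 3.48 (SD, n = 3) in sham and 27.4% ± 11.7 (SD, n = 3) in DAC, a difference of -3.49 percentage points (exact two-sided permutation P = 0.7). Leaving out DAC replicate 5 gave 0.845 percentage points, and leaving out DAC replicate 6 gave -10.2.

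The differences of the C1q chains moved most with DAC replicate 6. Without it, C1QA was called lower in DAC, with a difference of -0.52 (adjusted P = 0.495 from limma), in a fit that called 9.07% of all genes. Without the same sample, the difference was -0.41 for C1QB and -0.31 for C1QC, neither of them called. Without DAC replicate 5, the difference of C1QA was 0.23. Leaving out each of the 6 minipigs in turn moved C1QB between -0.41 and 0.013 and C1QC between -0.31 and 0.14.

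Macrophages are a known source of C1q in tissue, and 13 of 15 macrophage markers were listed and 12 tested. Of the 12, F13A1 was called higher in DAC and CD163 was called lower, while 6 had a higher mean, and the median difference was -0.0024. Among all genes tested, 3.25% were called higher and 5.27% lower. The summed level of the 13 was 248 to 312 FPKM in sham and 269 to 307 FPKM in DAC, and no listed marker was at 0 in any sample. CD74, which other antigen-presenting cells also express, made up most of that sum, at 145 to 223 FPKM. Without CD74 the other 12 listed markers summed to 103.5, 89.0 and 105 FPKM in sham and to 77.2, 112 and 102 FPKM in DAC. On both sums DAC replicate 6, where the C1q chains were highest, lay inside the range of the other 5 samples. F13A1, a transglutaminase subunit found in tissue macrophages, was at 5.37, 3.28 and 4.60 FPKM in sham and at 5.95, 5.50 and 7.25 FPKM in DAC, highest in DAC replicate 6. CD163, a scavenger receptor of macrophages, was at 11.0, 9.98 and 12.6 FPKM in sham and at 9.16, 7.70 and 7.31 FPKM in DAC, lowest in DAC replicate 6. The single markers thus differed in how they ordered the minipigs. FCER1G, a signaling chain of Fc receptors, was also highest in DAC replicate 6, at 6.18 FPKM, so that 2 of the 12 (16.7%) peaked there, as did each of the 3 C1q chains and 17.6% of all genes tested. CD68 and AIF1 had differences of 0.50 and 0.25, and LYVE1, CD14 and MRC1 of -0.62, -0.38 and -0.25. The difference was -0.088 for CSF1R and 0.14 for LAPTM5, and none of these markers was called. The part of macrophages in the C1q levels was not tested. In bulk tissue, fewer cells of a type and less RNA per cell cannot be told apart.

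**Figure D2:**
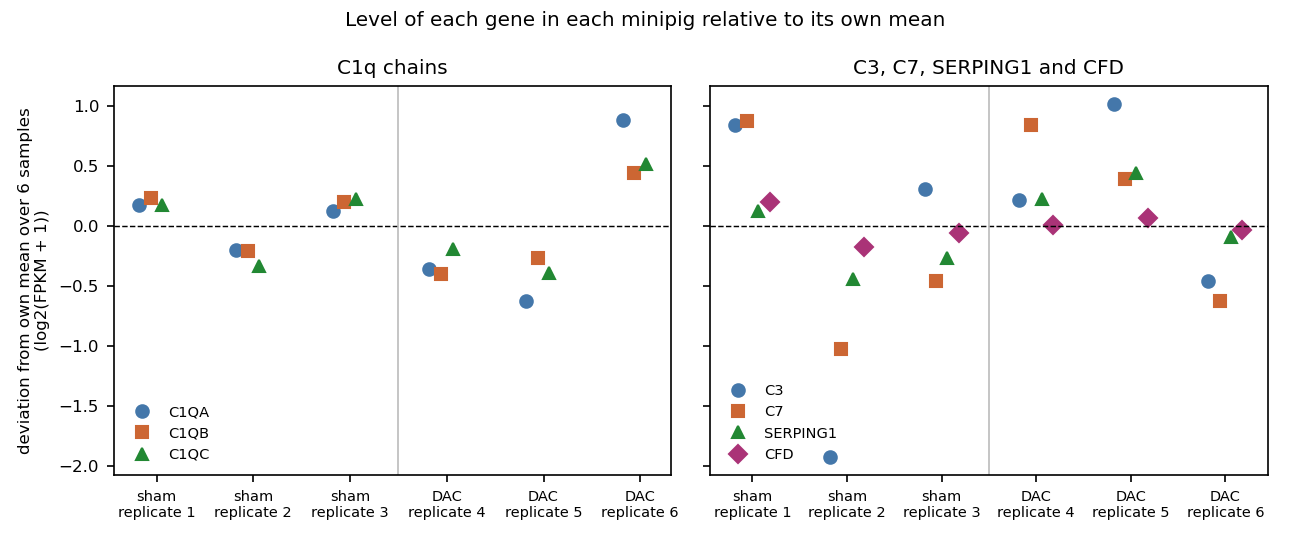
Deviation of each gene from its own mean over the 6 samples on the log2(FPKM + 1) scale (vertical axis) in each minipig (horizontal axis), for the 3 C1q chains on the left and for C3, C7, SERPING1 and CFD on the right. The C1q chains lie between -0.62 and 0.88 and have the same sign in each minipig, while C3 reaches -1.92 in sham replicate 2 and 1.02 in DAC replicate 5.

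SERPING1 (chr2:13324158-13338663, minus strand), whose product is the inhibitor of C1r and C1s, had the smallest P of the 7 genes. It was at 71.8, 48.2 and 54.5 FPKM in the sham minipigs and at 76.9, 89.6 and 61.5 FPKM in the DAC minipigs. DAC replicates 4 and 5 were above all sham samples, and DAC replicate 6 was below sham replicate 1. The means were 58.2 ± 12.2 FPKM (SD, n = 3) and 76.0 ± 14.1 FPKM (SD, n = 3), a ratio of 1.31. The difference of 0.38 (standard error 0.19, 95% interval -0.069 to 0.84, adjusted P = 0.617 from limma) was not called. It was positive under all 15 alternative settings, from 0.26 to 0.54. SERPING1 was called higher at 0.54 when sham replicate 1 was left out (adjusted P = 0.884 from limma), in a fit that called 5.44% of all genes. It was also called at 0.52 when DAC replicate 6 was left out (adjusted P = 0.510 from limma), in a fit that called 9.07% of all genes. Quantile normalization of the 6 samples gave a call at 0.46 (adjusted P = 0.619 from limma), where 8.04% of all genes were called. The ratio to C1r and C1s could not be formed, because neither gene had a row.

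Fibroblasts are among the stromal cells that transcribe SERPING1. Of the 13 fibroblast markers, all tested, 4 were called higher in DAC (LUM, COL1A1, COL1A2 and COL3A1), all of them matrix genes, and none was called lower. The shares over all genes tested were 3.25% higher and 5.27% lower. The median difference of the 13 was 0.17, no marker was at 0, and DCN, TCF21 and MFAP5 had differences of -0.012, -0.022 and -0.033. Their summed level was 768 to 891 FPKM in sham and 975 to 1163 FPKM in DAC. COL1A1, COL1A2 and COL3A1 held much of that sum, with means of 94.0, 73.3 and 173 FPKM in sham. Their means in DAC were 165, 110 and 238 FPKM. DCN and GSN, also abundant, had means of 150 and 177 FPKM in sham and 156 and 191 FPKM in DAC. Between the group means, these collagens thus moved more than DCN and GSN. The marker sum was highest in DAC replicate 6, where SERPING1 had its lowest DAC value. There DCN and COL3A1 had their highest DAC values, 218 and 255 FPKM, and COL1A1 its lowest, 137 FPKM. The order of the minipigs thus depended on the marker. The part of fibroblasts in the SERPING1 level was not tested.

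CFD (chr2:77509795-77511974, minus strand), which encodes factor D, had the highest mean of the 7 genes over the 6 samples and the smallest residual SD, although the DAC mean of SERPING1, 76.0 FPKM, was as high. It was at 86.7, 66.6 and 72.1 FPKM in sham and at 75.6, 78.7 and 73.4 FPKM in DAC, and the DAC values lay inside the sham range. The means were 75.1 ± 10.4 FPKM (SD, n = 3) and 75.9 ± 2.63 FPKM (SD, n = 3), a difference of 0.023 (95% interval -0.27 to 0.31, adjusted P = 0.971 from limma). Its interval was the narrowest of the 7. CFD lies within the position of MED16, a Mediator subunit on the opposite strand, and the use of strand in counting is not given in the sources used here, so reads of the pair cannot be told apart. MED16 was at 5.82 to 6.40 FPKM in sham and at 5.43 to 5.66 FPKM in DAC.

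Factor D is known as adipsin from fat cells, and 6 of 10 adipocyte markers were listed. Of the 4 tested, GPD1 was called lower and none higher, with a median difference of -0.34, which was -0.036 when all 6 listed markers were counted. Beside this, 5.27% of all genes tested were called lower. FABP4, a fatty acid carrier, had means of 8.55 FPKM in sham and 12.9 FPKM in DAC, a difference of 0.54 that was not called. The summed level of the 6 listed markers was 45.6 to 58.5 FPKM in sham and 36.9 to 50.2 FPKM in DAC. PLIN4 was the largest part of that sum in each sample, with means of 29.9 FPKM in sham and 22.0 FPKM in DAC. The differences of PLIN4 and LIPE were -0.39 and -0.28, and neither was called. ADIPOQ, the defining adipokine, had means of 0.0918 FPKM in sham and 0.279 FPKM in DAC, and CIDEC, a lipid droplet protein, of 0.278 and 0.625 FPKM, and neither passed the filter. The part of fat cells in the CFD level was not tested.

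C3 (chr2:72431499-72528112, plus strand), the central component, varied most between animals. It was at 48.6, 6.32 and 33.4 FPKM in the sham minipigs and at 31.3, 55.2 and 19.2 FPKM in the DAC minipigs. Sham replicate 2 was 3.05 times below the next lowest sample, and the sham samples spanned 7.70 times from lowest to highest against 2.87 times in DAC. The means were 29.4 ± 21.4 FPKM (SD, n = 3) and 35.2 ± 18.3 FPKM (SD, n = 3). The difference was 0.52 with a 95% interval from -1.16 to 2.20 (adjusted P = 0.855 from limma), but leaving out sham replicate 2 turned it to -0.31, and leaving out sham replicate 1 raised it to 1.07. The residual SD of C3 on the log2 scale, 1.16, stood at percentile 99.7 of all genes tested. The listed position of C3 spans 96614 bases and the RefSeq gene 40153, and it also covers TNFSF14 and 2 RefSeq genes with a LOC symbol only, and whether its value includes their reads was not tested.

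C7 (chr16:25843101-25953574, plus strand), of the terminal complex, was at 19.7, 4.59 and 7.24 FPKM in sham and at 19.2, 13.9 and 6.34 FPKM in DAC. Each group held samples near both ends of the range, which was 4.30 times from lowest to highest. The means were 10.5 ± 8.08 FPKM (SD, n = 3) and 13.2 ± 6.48 FPKM (SD, n = 3), a difference of 0.40 (95% interval -0.86 to 1.67, adjusted P = 0.852 from limma). Leaving out sham replicate 1 gave a difference of 0.94, and leaving out sham replicate 2 gave -0.0043. The residual SD of C7 was at percentile 99.2 of all genes tested. The listed position of C7 also covers the RefSeq gene MROH2B.

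**Figure D3:**
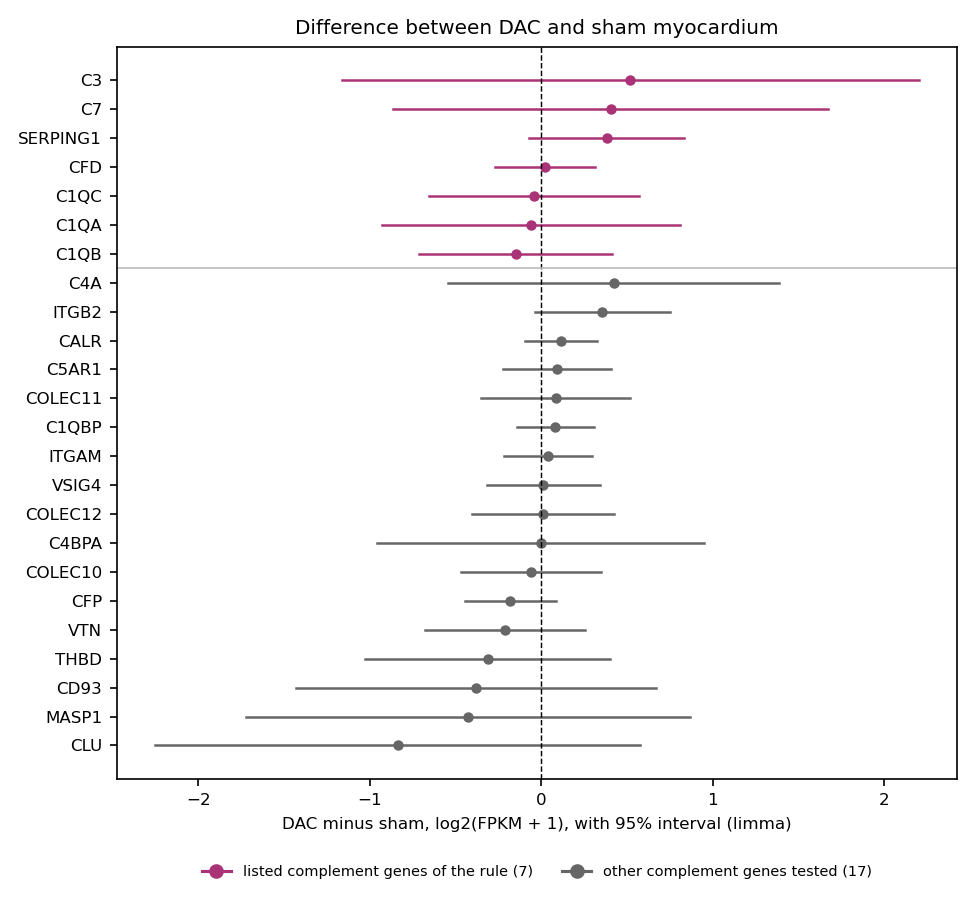
Difference between DAC and sham on the log2(FPKM + 1) scale (horizontal axis) with its 95% interval from limma, for the 7 listed complement genes of the rule above the line and the other 17 complement genes tested below it. Every interval holds 0, and the intervals of C3 and CLU are the widest, from -1.16 to 2.20 and from -2.25 to 0.58.

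By mean level over the 6 samples, the order was CFD, SERPING1, C1QC, C3, C1QB, C1QA and C7, at ranks 436, 503, 845, 1127, 1937, 2586 and 3204 of the 13288 listed genes. Neighbours in this order did not all separate. CFD was above SERPING1 in 4 of 6 samples, and C1QC above C3 in 4 of 6. C3 was above C1QB in 4 of 6 samples and C1QA above C7 in 3 of 6. SERPING1 was above C1QC, and C1QB above C1QA, in each of the 6. Together the 7 genes held 0.0646% to 0.110% of the summed FPKM in sham and 0.0929% to 0.0946% in DAC.

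Ratios between members do not depend on how the samples are scaled, and all 21 pairs were compared by an exact two-sided permutation test of the log2 ratio. In 1 of the 21 the groups did not overlap, with CFD at 1.21, 1.38 and 1.32 times SERPING1 in sham and at 0.983, 0.878 and 1.19 times in DAC (exact permutation P = 0.1, the smallest that 3 against 3 allows, and 0.945 after adjustment over the 21 pairs). The nearest values of the 2 groups, 1.21 in sham replicate 1 and 1.19 in DAC replicate 6, were close together. The widest ratio was that of C1QA to C3, from 0.156 in DAC replicate 5 to 1.88 in sham replicate 2. Among the pairs, 15 had the same order in all 6 samples.

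The minipigs also differed from each other in ways the groups did not follow. Sham replicate 2 held the lowest value of 4 of the 7 genes, C3, C7, CFD and SERPING1, where 13.1% of all genes tested had their lowest value. DAC replicate 6 held the highest value of the 3 C1q chains, where 17.6% of all genes tested had their highest. DAC replicate 5 held the highest value of C3 and SERPING1 and the lowest of C1QA and C1QC. In DAC replicate 5 the mitochondrially encoded genes took 32.8% of the summed FPKM, against 24.0% to 27.2% in the other samples. The part of this share in the levels of the 7 genes was not tested beyond leaving those genes out, after which none of the 7 was called. The residual SD of the 7 genes had a median of 0.40 on the log2 scale, against 0.18 over all genes tested.

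**Figure D4:**
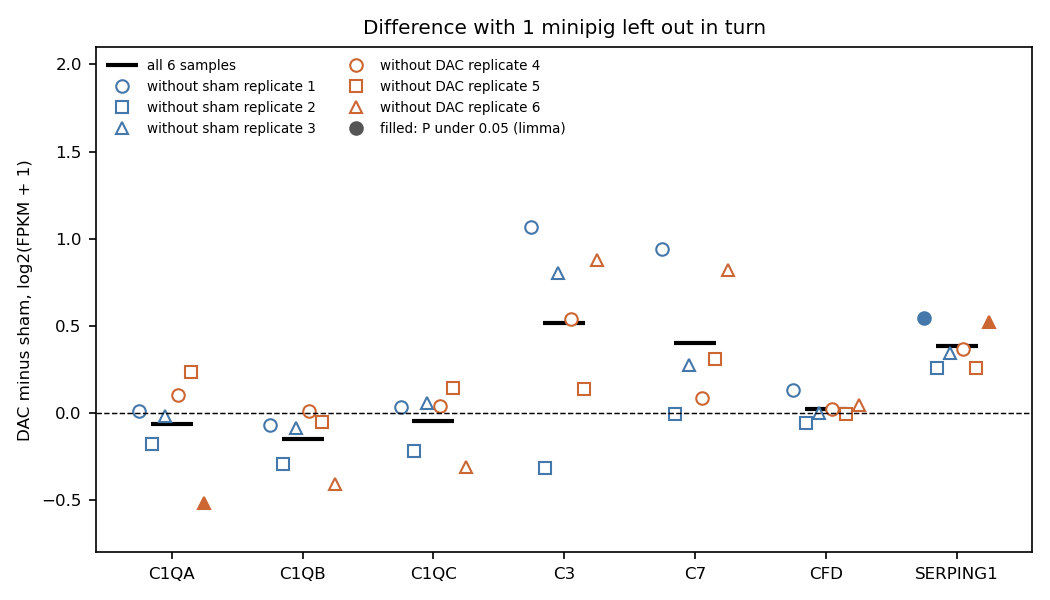
Difference between DAC and sham on the log2(FPKM + 1) scale (vertical axis) for the 7 listed complement genes, with all 6 samples (black bars) and with each minipig left out in turn (symbols). Filled symbols, which mark an unadjusted P under 0.05 from limma, appear for C1QA without DAC replicate 6 and for SERPING1 with sham replicate 1 or DAC replicate 6 left out.

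The rest of the pathway was read from a list of 50 further complement symbols, of which 26 had a row and 17 were tested. None of the 17 was called in either direction by limma, their median difference was 0.011, and 9 had a higher mean in DAC. The groups did not overlap in 2 of them, or 11.8%, against 14.9% of all genes tested. CALR, the chaperone calreticulin that also binds C1q, was at 85.7, 85.1 and 82.2 FPKM in sham and at 92.6, 91.2 and 90.9 FPKM in DAC, with a difference of 0.12 (95% interval -0.093 to 0.33, adjusted P = 0.723 from limma). With each gene on its own variance CALR was called higher (adjusted P = 0.464), in a fit that called 8.06% of all genes. Its residual SD of 0.024 stood at percentile 0.2 of all genes tested. CFP, which encodes properdin, the stabilizer of the alternative pathway convertase, was at 5.38, 6.36 and 5.14 FPKM in sham and at 4.59, 4.77 and 5.13 FPKM in DAC, a difference of -0.18 (adjusted P = 0.672). The lowest sham and highest DAC values of CFP were 5.14 and 5.13 FPKM, while for CALR the gap, from 85.7 to 90.9 FPKM, was wider than the range inside either group.

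Initiation of the classical and lectin pathways was represented by 6 tested genes, none of them called. COLEC12, a scavenger collectin, had means of 10.7 FPKM in sham and 10.8 FPKM in DAC, a difference of 0.011 whose sign turned with some settings. MASP1, a protease of the lectin pathway, was at 10.6, 2.33 and 12.98 FPKM in sham and at 7.95, 3.12 and 5.01 FPKM in DAC. Its difference was -0.43, and without sham replicate 2 it was called lower at -1.07 (adjusted P = 0.488 from limma). That fit called 9.33% of all genes. C4A, for the component that follows C1s, was at 0.672 to 2.08 FPKM in sham and at 0.724 to 4.09 FPKM in DAC, a difference of 0.42 (95% interval -0.54 to 1.39).

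Among regulators in the fluid phase, CLU, the terminal pathway inhibitor clusterin, was at 171, 49.5 and 52.5 FPKM in sham and at 53.6, 19.6 and 71.1 FPKM in DAC. Sham replicate 1 stood 2.41 times above the next sample, and the difference was -0.84 (95% interval -2.25 to 0.58, adjusted P = 0.710 from limma), or -0.26 without that sample. VTN, for vitronectin, had a difference of -0.21 and C1QBP, for a mitochondrial protein that binds C1q, of 0.083, with adjusted P of 0.780 and 0.822. VTN lies over 4 other listed genes. C4BPA, a subunit of the C4b-binding protein, was at 7.89, 5.16 and 6.71 FPKM in sham and at 4.44, 4.12 and 14.03 FPKM in DAC, the order of minipigs seen for C1QA. Its difference was -0.0035, and without DAC replicate 6 it was called lower at -0.51 (adjusted P = 0.503 from limma). That fit called 9.07% of all genes.

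Of the receptors, 5 were tested and 4 had a higher mean in DAC. ITGB2, the beta chain of the complement receptors CR3 and CR4, was at 1.57, 1.38 and 1.66 FPKM in sham and at 1.59, 2.91 and 2.39 FPKM in DAC. DAC replicates 5 and 6 were above the sham samples and replicate 4 was among them. The difference was 0.36 (95% interval -0.036 to 0.75, adjusted P = 0.596 from limma). Without DAC replicate 4, ITGB2 was called higher at 0.52 (adjusted P = 0.567 from limma), in a fit that called 7.52% of all genes. CD93, once described as a C1q receptor and present on endothelium, was at 7.36, 14.5 and 18.1 FPKM in sham and at 4.87, 9.82 and 16.7 FPKM in DAC, with a difference of -0.38. VSIG4, a macrophage receptor for C3 fragments, was at 3.42 to 4.57 FPKM in sham and at 3.44 to 4.65 FPKM in DAC. The receptor genes C5AR1 and ITGAM had differences of 0.092 and 0.040. Outside the receptors, COLEC10 and COLEC11 of pathway initiation had differences of -0.060 and 0.084, and the membrane regulator THBD of -0.31. None of these genes was called.

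The genes most like each member were those with the smallest mean absolute difference of the centred log2(FPKM + 1) values over the 6 samples, out of all genes tested, given as a description. Nearest to C1QA were C4BPA at 0.089, the stress gene GADD45A at 0.12 and CDK15 at 0.15, where C1QA itself deviated from its mean by 0.39 on average. Nearest to C1QB were the histone gene H2AFZ at 0.061, STXBP6 at 0.066 and KCTD21 at 0.072, and nearest to C1QC were RRAD, B4GALT4 and STMN1 at 0.086 to 0.089. No C1q chain was among the 3 nearest genes of another, although all 3 chains deviated in the same direction in each minipig. C7 was closest to LRP8 at 0.16, TENT5A at 0.17 and TMEM52B at 0.20, beside its own average deviation of 0.70. For C3 the nearest genes, a gene without a symbol, DAGLA and RAB29, were at 0.40, against its own average deviation of 0.79. SERPING1 was nearest to a gene without a symbol, then DTX1 at 0.078 and GIMAP6 at 0.087. CFD, which hardly varied, was nearest to POLD3, ZMAT5 and EPG5.

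Other marker lists give the cell types the tissue could hold. Of 3 tested lymphocyte and neutrophil markers none was called, with a median difference of 0.14 and sums of 12.2 to 14.2 FPKM in sham and 13.04 to 19.2 FPKM in DAC. Of 10 endothelial markers 2 were called higher and 3 lower, and of 9 smooth muscle and pericyte markers 1 was higher and none lower. The medians were -0.24 and 0.10. Over all genes tested, 3.25% were called higher and 5.27% lower, the shares to set beside each list here. The cardiomyocyte list had 1 gene higher and 1 lower among 10, with a median of -0.0060. Only WT1 was listed of 8 mesothelial markers, at 4.76 to 11.4 FPKM in sham and 2.36 to 4.30 FPKM in DAC, called lower. Of 11 hepatocyte markers, ALB and APOA1 were listed, with ALB at means of 0.603 and 0.352 FPKM and APOA1, the only gene tested, at a difference of -0.037. Only HBB of 6 red blood cell markers was tested, with a difference of -0.12 and list sums from 5.96 to 39.3 FPKM. Interferon is known to induce transcription of SERPING1. Of 12 interferon response genes, none was called higher and 1, MX2, was called lower. Their median was -0.058, and 5 of the 12 had a higher mean in DAC. The part of interferon in the SERPING1 level was not tested.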

How the data were processed

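RNA from ventricular tissue of 3 sham and 3 DAC minipigs was made into NEBNext Ultra libraries, which an Illumina HiSeq instrument read from both ends. The authors deposited 1 table of FPKM with a column per minipig and no pooling. The submitters' processing notes name HISAT2 and susScr11, while the quantification program and its treatment of shared reads are not given in the sources used here. Every listed gene reached 0.500 FPKM in its highest sample. Low values showed no steps of whole reads, with at most 3 genes sharing a ratio in any of 15 sample pairs, so depth is unknown.

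The log2 of FPKM plus 1 was compared with limma 3.58.1 (R 4.3.3), with a variance trend, over genes that reached 1 FPKM in 3 or more samples, and P was adjusted over all of them by Benjamini-Hochberg. The call at an unadjusted P under 0.05 follows the study. Ratios and shares were compared with exact permutation tests. Only the limma fit was tried on simulated data, and figures used Python 3.11.15 with matplotlib 3.10.9. A table of identifiers gave 519 genes the symbol that their row lacked. RefSeq positions are those of Sscrofa11.1.

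The members and the 18 gene lists were chosen with earlier results of these data known. Named further genes are complement genes that were called, did not overlap between groups or were among the 6 most abundant, the 3 nearest genes of each member, and up to 3 markers per list with the highest mean. Markers named because they were called were named after their values were seen, as were CD68, AIF1, LYVE1, CD14, MRC1, FCER1G, DCN, TCF21 and MFAP5. The same holds for ADIPOQ, CIDEC, LIPE, C4A, C4BPA, MASP1, ITGB2, VSIG4, C5AR1, ITGAM, COLEC10, COLEC11, THBD and the genes under the filter. Alternatives were no filter, 5 FPKM, a pseudocount of 0.1, median scaling, quantile normalization, mitochondrially encoded genes left out, no variance trend, gene-wise variance, array weights and each sample left out. No paired fit was made. No sequences were used here.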

Additional observations from a re-analysis of the deposited data

How the results depend on the processing

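Of the 7 complement genes, 1 was called after quantile normalization (SERPING1), and 0 to 2 with a sample left out in turn, SERPING1 without sham replicate 1 and both SERPING1 and C1QA without DAC replicate 6. None was called under the other 8 settings, and no adjusted P of a member was below 0.495 in any. Of the other 17 complement genes, 1 was called with gene-wise variance (CALR) and 0 to 1 with a sample left out. With no filter, 26 were tested and 0 called by limma. Over all genes, 939 were called, 579 with a minimum of 5 FPKM and 600 to 1029 with a sample left out, lowest without sham replicate 1. The split of 358 higher and 581 lower became 500 and 407 with mitochondrially encoded genes left out, while the median difference of all genes moved from -0.016 to 0.020.

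Signs near 0 were not stable. C1QA was 0.047 with array weights, and C1QC 0.018 after quantile normalization, 0.00020 without mitochondrially encoded genes and 0.00050 with array weights, while COLEC12 was -0.012 with array weights. With a sample left out, differences ran from -0.52 to 0.23 for C1QA, -0.41 to 0.013 for C1QB, -0.31 to 0.14 for C1QC, -0.31 to 1.07 for C3, -0.0043 to 0.94 for C7, -0.059 to 0.13 for CFD, -0.76 to 0.033 for CD93, -0.11 to 0.15 for COLEC12 and -0.37 to 0.0015 for VTN. The C1q share then differed by -10.2 to 0.845 percentage points. The cause was not tested. The ratio of C1R and C1S to SERPING1 was not run, since neither gene had a row, and the promoter search was not run without promoter sequences. No paired analysis was possible because the replicate numbers run from 1 to 6 across the groups and none is shared.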

Other observations

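Of the 26 further complement genes with a row, 9 stayed below the filter and were not tested in the 6 samples. C2, the protease that joins C4b in the classical convertase, was at 0.197, 0.339 and 0.774 FPKM in sham and at 0.171, 2.67 and 1.31 FPKM in DAC, so that its highest and lowest values were both in DAC. CFB, the factor B that is cut by factor D, was at 0.276 to 0.639 FPKM in sham and at 0.122 to 0.723 FPKM in DAC, and its position overlaps those of C2 and NELFE. CFI, the protease that degrades C3b, was at 0.744, 0.661 and 0.141 FPKM in sham and at 0.600, 1.24 and 1.09 FPKM in DAC. PTX3, a pentraxin that binds C1q, was at 0.406 to 0.447 FPKM in sham and at 0.504 to 0.754 FPKM in DAC. FCN2, a ficolin of the lectin pathway, was listed at 0.116, 0.0507 and 0 FPKM in sham and at 0.549, 0.208 and 0.159 FPKM in DAC. The DAC values of PTX3 and FCN2 lay above all sham values at levels where the read number is unknown, and neither was called when every listed gene was tested. Groups did not overlap in 14.9% of all genes tested, a share not formed for genes below the filter. The means of MASP2 and C1RL were lower in DAC, from 0.533 to 0.324 FPKM and from 0.389 to 0.215 FPKM. C8G had means of 0.864 FPKM in sham and 0.855 FPKM in DAC, and SUSD4 of 0.372 and 0.571 FPKM.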
